A study of Saccharomyces cerevisiae with 2 samples.

Results

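The subtelomeric belt described here is the stretch 10 to 30 kb inside each chromosome end of the yeast Saccharomyces cerevisiae, on chromosomes II to XVI. It was taken by position alone, from the coordinates of the deposited table: probes from 10 to 30 kb, and probes from 30 to 10 kb before the largest coordinate of the chromosome. It holds 1857 of the 41480 probes of the array (4.48%), in 30 belts, 870 probes at 15 left ends and 987 at 15 right ends. All DNA came from strain WFA73, a mec1 mutant, which lacks normal function of the checkpoint kinase Mec1, a guard of replication forks that stall. In both recoveries the cells were held in G1 with alpha factor and released into 200 mM hydroxyurea for 1 h. The drug was filtered away and the cells grew on for 1 h, with 0.8 micromolar BPS, an iron chelator, or without BPS. DNA ends were labelled inside agarose, with Cy3 for the recovery and with Cy5 for G1 DNA of the same strain, and both were hybridised to 1 array per recovery. The question was whether BPS altered the map of DNA double strand breaks.

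There was 1 array with BPS and 1 array without BPS, so the differences below could not be set against a spread between replicates and carry no p-value. Each probe has 1 deposited ratio per array, with a median of 1.23 with BPS and 1.21 without BPS over all probes. Ratios were turned into log2 and each array was centred on its median. A level of 0 is therefore the median of the genome, and a difference is the level with BPS minus the level without BPS. This scale gives position along the genome and not the total number of breaks. The labels do not say which channel is the numerator. Recovery over G1 is likely, since the columns carry the names of the recoveries and the design sets them against G1; were it the other way round, every sign below would turn. A change in the G1 channel of either array would also give a difference. SEs are over the probes of a stretch and cover scatter within the arrays only, and neighbouring probes are not independent. Higher copy number of DNA replicated early is not told apart from broken ends by this assay. No sequence is shown, because positions could not be tied to a genome of the same build.

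Subtelomeres lie between the telomere repeats and the unique interior of a chromosome. Their outermost part is folded into silent chromatin by the Sir proteins, and it replicates late, under the control of Rif1 and Ku. Further in lie gene families that cells use under particular conditions, for hexoses and maltose, siderophores, sulfur compounds and vitamins, in chromatin that the histone deacetylase Hda1 affects. Hydroxyurea lowers deoxynucleotide pools by inhibiting ribonucleotide reductase, itself an iron enzyme. In mec1 cells, forks stalled by the drug can break.

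The belt lay above the median of the genome on both arrays. Its probes had a median deposited ratio of 1.62 with BPS and 1.42 without BPS, with 10th to 90th percentiles of 0.812 to 2.88 and 0.789 to 2.52. On the centred scale these medians were 0.40 with BPS and 0.23 without BPS. Of the belt's probes 69.4% were above the genome median with BPS and 62.7% without BPS. The outermost 10 kb, with 550 probes, had medians of −0.07 with BPS and −0.55 without BPS. The zone 30 to 50 kb from an end, with 2170 probes, had 0.16 and 0.27. On both arrays the belt was thus above the outermost 10 kb. With BPS it was also above the zone next to it inward, and without BPS it was slightly below that zone.

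The belts at single ends spread widely, and the 2 arrays put them in a like order. With BPS the mean level of a belt ran from −1.65 to 1.14 with a median of 0.38, and without BPS from −0.96 to 0.69 with a median of 0.26. That second median lies in a wide gap between neighbouring ends: without the right end of VIII, which rests on 3 probes, it was 0.41. Of the 30 belts, 19 were above the genome median on both arrays and 5 below it on both. Across the 30 belts the levels with and without BPS had a Pearson's r of 0.871 and a Spearman's rho of 0.856, as a description of belts that share each array. In 536 windows of 20 kb tiled over the rest of chromosomes II to XVI, the median level was 0.06 with BPS and 0.05 without BPS.

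With BPS the left end of X had the highest belt (1.14 ± 0.07, SE over 37 probes, against 0.59 ± 0.10 without BPS). The left ends of XIV (1.07 ± 0.07 and 0.63 ± 0.07), VII (0.98 ± 0.07 and 0.56 ± 0.06) and VI (0.81 ± 0.08 and 0.54 ± 0.06) followed. Without BPS the right ends of XIII and II led instead, and these had close values on the arrays: 0.77 ± 0.07 with BPS and 0.69 ± 0.07 without BPS at XIII, and 0.66 ± 0.09 and 0.65 ± 0.08 at II. The first 4 places with BPS were thus taken by left ends, and the first 2 without BPS by right ends. The right ends of XIII and II lay within their SEs of each other without BPS, whereas VII left and VI left differed by more than their SEs with BPS. Among belts with more than 3 probes, the right end of XII was lowest on both arrays, at −0.63 ± 0.06 with BPS and −0.52 ± 0.04 without BPS over 67 probes. The left end of VIII came next without BPS, at −0.52 ± 0.04, and stood at −0.10 ± 0.08 with BPS.

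**Figure D1:**
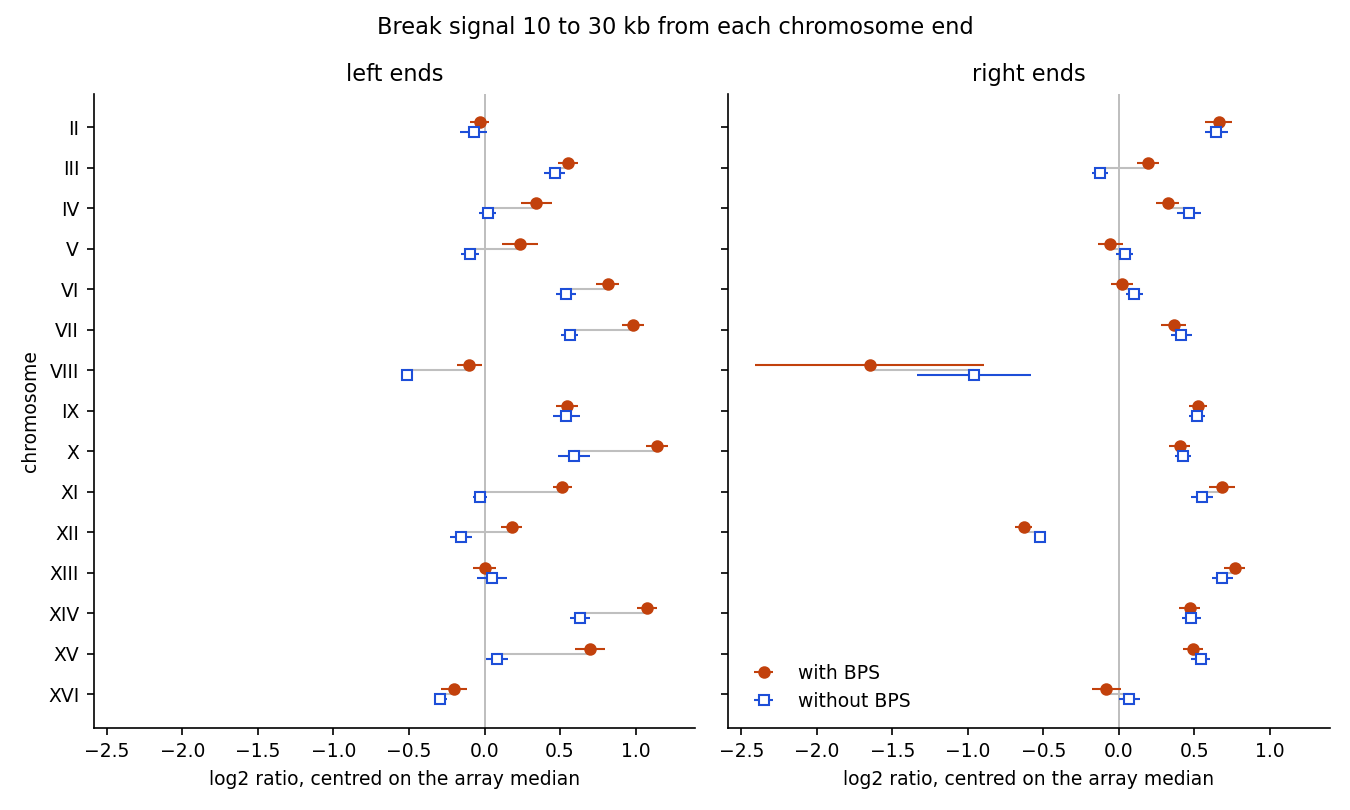
Mean level of each belt (log2 ratio centred on the array median, x axis) by chromosome, left ends and right ends in separate panels. Filled circles are the array with BPS, open squares the array without BPS, bars the SE over probes; among belts with more than 3 probes the widest gap between the symbols is at XV left (0.70 and 0.08), and the right end of VIII, with −1.65 and −0.96, rests on 3 probes.

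The belt was higher with BPS mainly at left ends. Over all 30 belts the difference had a median of 0.06, from −0.69 to 0.62, and 19 of the 30 were above 0; of the 536 windows over the rest of the chromosomes, 43.3% were above 0, with a median of −0.03. Left ends had a median difference of 0.33, with 14 of 15 above 0. Right ends had a median of −0.05, with 5 of 15 above 0 and the others below 0, as 56.7% of the windows were. On 12 of the 15 chromosomes the left belt had the higher difference. The split into left and right ends was made after the values were seen and has no test. Beside it stand these values: belts at left and right ends had medians of 61 and 69 probes and a scatter between neighbouring probes of 0.41 and 0.39 on the log2 scale. The part of probe number and scatter in the split was not tested.

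Only 3 belts differed by more than 0.5 log2 units upwards, all at left ends (10% of the belts, against 5.04% of the tiled windows). At the left end of XV the median deposited ratio was 2.23 with BPS and 1.29 without BPS. The mean level was 0.70 ± 0.10 with BPS and 0.08 ± 0.07 without BPS, a difference of 0.62 ± 0.07 or 1.53-fold, and 48 of 53 probes were higher with BPS. The left end of X differed by 0.55 ± 0.09 (35 of 37 probes higher) and the left end of XI by 0.55 ± 0.06 (60 of 70 probes). On XI the level was 0.52 ± 0.06 with BPS and −0.03 ± 0.05 without BPS. The left ends of XIV (0.44 ± 0.07), VII (0.42 ± 0.06) and VIII (0.42 ± 0.07) came next in order and lay within their SEs of each other. At the left ends of IX and II the levels on the arrays differed by less than 1 SE, with 0.001 ± 0.08 and 0.04 ± 0.06. XIII was the left end with a negative difference (−0.05 ± 0.05).

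Among right ends III stood out by its size, at 0.32 ± 0.06, with 0.19 ± 0.07 with BPS and −0.13 ± 0.05 without BPS. The right end of XI followed at 0.13 ± 0.05. The lowest differences over more than 3 probes were at the right ends of XVI (−0.15 ± 0.06), IV (−0.14 ± 0.04), XII (−0.11 ± 0.06), V (−0.09 ± 0.06) and VI (−0.08 ± 0.05). Each of these was smaller in size than the gain at any of the 6 left ends named above. The right end of VIII had −0.69 ± 0.50, from 3 probes. Its deposited ratios were 0.347, 0.168 and 1.02 with BPS and 0.437, 0.533 and 1.04 without BPS, and a gap of 14.2 kb without probes lay between the second and the third. For the 29 belts with at least 10 probes, differences computed apart from odd and even probes had r = 0.920 and the same sign at 23, a description of probe noise and not of cultures.

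By distance, the gain lay in the outer part of the belt and faded at about 20 kb. In left ends the median difference was 0.09 at 0 to 5 kb (8 ends with probes, 5 above 0). It was 0.52 at 5 to 10 kb (11 ends). At 10 to 15 kb it was 0.71 (12 ends, all above 0) and at 15 to 20 kb 0.52 (15 ends, all above 0). Some of these bins are thin: XIV and XVI have 1 probe each and VI 3 at 10 to 15 kb, and X has 1 and IX 2 at 15 to 20 kb. With bins of fewer than 5 probes left out, a choice made after seeing the data, the medians were 0.71 (9 ends) and 0.61 (13 ends), again all above 0. The median was 0.13 at 20 to 25 kb and 0.01 at 25 to 30 kb, and between −0.09 and 0.04 from there to 60 kb. At 10 to 15 kb the left ends had a median level of 0.50 with BPS and −0.22 without BPS, and at 25 to 30 kb 0.65 and 0.58. The arrays thus met again before the inner limit of the belt.

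Right ends ran lower throughout the belt, with medians of 0.14, 0.07, −0.07 and −0.24 in the same 4 bins. Outward of the belt they had 0.26 at 0 to 5 kb, where left ends had 0.09, and 0.28 at 5 to 10 kb. Inward of it their medians stayed below 0 in every bin to 60 kb. These ran from −0.06 at 35 to 40 kb to −0.27 at 55 to 60 kb, with 2 to 6 of 15 ends above 0. The low values of the inner belt at right ends were thus not particular to the belt. Their level was 0.22 with BPS and 0.02 without BPS at 10 to 15 kb, and −0.13 and −0.01 at 25 to 30 kb. Distance at right ends counts from the last probe, and in the RefSeq annotation of assembly R64 the last gene ended a median of 4.91 kb beyond it. Counted from that gene, right ends had 0.22 at 10 to 15 kb (14 ends) and 0.12 at 15 to 20 kb, still below left ends, and 0.56 within the outermost 5 kb (8 ends). On this count the belts at right ends had a median difference of 0.06, with 9 of 15 above 0.

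**Figure D2:**
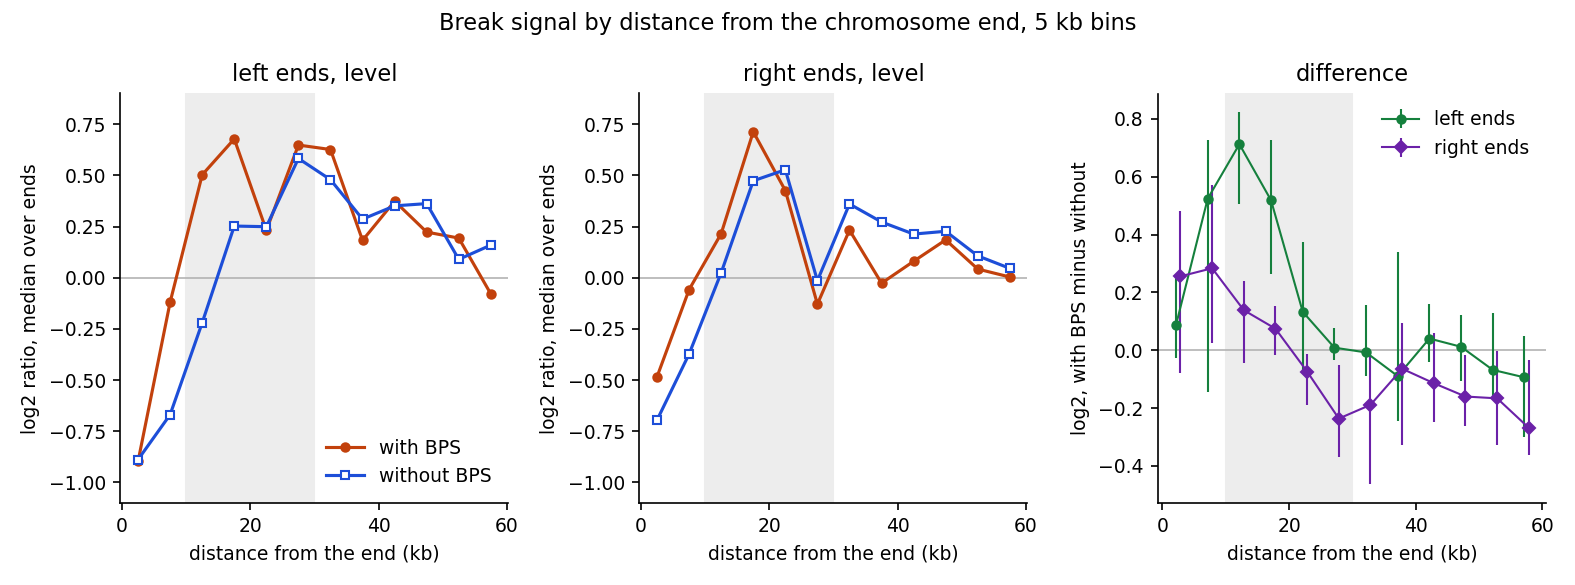
Median over ends of the level (2 left panels) and of the difference with BPS minus without BPS (right panel, bars from the lower to the upper quartile of the ends) in 5 kb bins from the chromosome end; grey marks the belt. At left ends the level with BPS is already at 0.50 at 10 to 15 kb, where it is −0.22 without BPS, while right ends differ by 0.14 there.

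Counted by probes, with a mean over 2 kb either side of each, 286 belt probes (15.4%) were higher with BPS by more than 0.5 log2 units, against 7.84% of all probes of the array. Lower by as much were 33 (1.78%), against 4.97% of all probes. The outermost 10 kb gained more than the belt. There 35.8% of probes were past this threshold upwards and 2.91% downwards, and the median difference over probes was 0.42, against 0.11 in the belt. At left ends from 10 to 20 kb from the end, 216 of 360 probes (60%) were past this threshold upwards, and at right ends 34 of 491 (6.92%). At 1 log2 unit, 19 belt probes (1.02%) were higher, all at left ends within 20 kb, against 1.44% of all probes. Lower by as much were 2 (0.108% against 0.176%). Both lie on VIII right, 27.5 and 27.6 kb from the end, at the edge of its gap, with no other probe in their window. Over the whole belt the share past 1 log2 unit was thus below that of the array, while at left ends from 10 to 20 kb the same 19 probes made up 5.28% of 360.

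**Figure D3:**
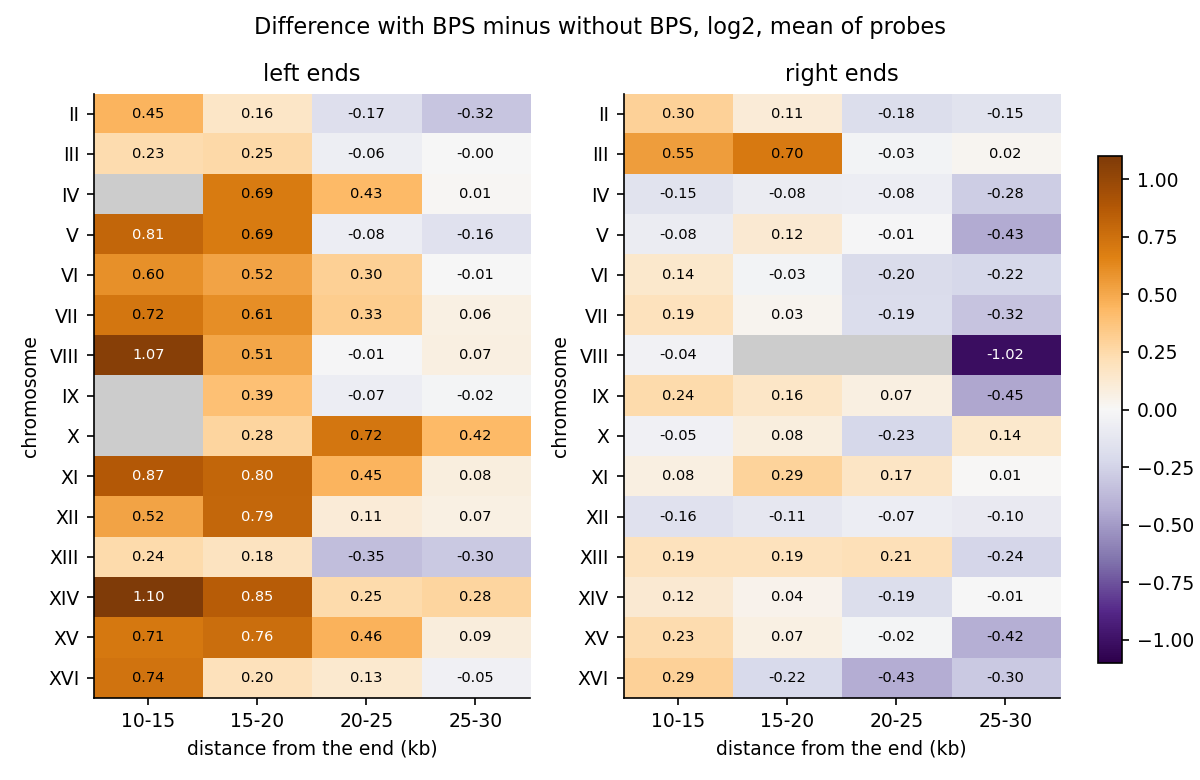
Mean difference with BPS minus without BPS (log2) of each belt in 4 bins of distance from the end, by chromosome; orange is higher with BPS, purple lower, grey no probes. In the left panel every bin at 10 to 20 kb that holds probes is above 0, and IV, IX and X have none at 10 to 15 kb. In the right panel III has 0.55 and 0.70, bins at 20 to 30 kb reach −0.45 on IX and −0.43 on V and XVI, and the bin at −1.02 on VIII rests on 2 probes.

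The probes past 0.5 log2 units formed runs. Runs were sought in the belt only, so no count from the rest of the array stands beside them. There were 10 runs of at least 5 probes at 10 left ends, 69.4 kb in all, and 1 at a right end. Their inner limits lay between 16.01 and 23.94 kb from the end. Outward, 6 of the runs at left ends went on past 10 kb, that on XIV only across a gap without probes. The longest, on XV left, covered 12.4 kb of the belt (10.03 to 22.39 kb, 46 probes), with 0.77 with BPS and 0.08 without BPS. XI left had 11.2 kb (10.2 to 21.4 kb, 39 probes; 0.68 and −0.15) and V left 11.0 kb (10.2 to 21.2 kb, 36 probes; 0.93 and 0.17).

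On VIII left the run from 10.11 to 16.01 kb had the highest mean difference, 1.01 ± 0.08 over 22 probes, with 0.57 with BPS and −0.44 without BPS. Its top was at ARN2, a siderophore transporter gene at 10.1 kb, where 16 probes gave 0.93 with BPS and −0.45 without BPS, a difference of 1.38 ± 0.09 the highest among windows of at least 5 probes. That window takes in probes up to 2 kb outside the belt. On XIV left (14.0 to 19.5 kb, 14 probes) the run had 1.06 with BPS and 0.10 without BPS, and its window at AAD14 gave 1.06 ± 0.15. It begins at the edge of a gap of 4.89 kb without probes. XII left (13.8 to 19.5 kb, 23 probes) had 0.16 and −0.66, and VII left (10.3 to 18.3 kb, 28 probes) 1.19 and 0.48. Differences of 0.83 ± 0.05 on XII and 0.71 ± 0.07 on VII thus stood on very unequal levels.

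Shorter runs lay on IV left (17.43 to 20.97 kb), at the inner edge of a gap of 15.2 kb, on VI left (18.2 to 19.9 kb) and on X left (19.6 to 23.9 kb, beside HXT9, a hexose transporter gene). X left has no probe before 19.6 kb, and IX left none before 19.6 kb either, so nearly all of their outer belts was not seen. The only right-hand run was on III, from 296.3 to 304.8 kb, which is 10.7 to 19.2 kb from the last probe. Its 33 probes gave 0.41 with BPS and −0.23 without BPS, a difference of 0.64 ± 0.07, with the top at GIT1, the permease gene for glycerophosphoinositol.

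The 3 lower runs lay at right ends beyond 20 kb. The run at DAL4, the allantoin permease gene on IX right (408.9 to 411.1 kb), had 0.09 with BPS and 0.70 without BPS over 11 probes, a difference of −0.61 ± 0.06. It went on to 34.7 kb from the end. The run at RDR1 on XV right (1051.9 to 1053.6 kb) had 0.15 and 0.70, and that near AQY1, an aquaporin gene on XVI right (920.0 to 922.2 kb), −0.60 and 0.09. The place of largest difference in a belt was a gain at 13 of 15 left ends, at a median of 15.2 kb from the end. At right ends it was a loss at 9 of 14, at 21.38 to 29.95 kb, and the median difference of right ends stayed below 0 further in.

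Of the 216 genes of the R64 annotation whose probes all lay in the belt, 154 had at least 3 probes. The difference was above 0.5 log2 units at 21 (13.6%), against 9.61% of all 4340 genes with as many probes. It was below −0.5 at 3 (1.95%), against 6.77% of all genes. No belt gene passed 1 log2 unit in either direction on these arrays, where the shares of all genes were 2.10% and 0.207%. The median difference was 0.07 in belt genes and −0.03 in all genes, and 57.8% of belt genes and 47.2% of all genes were above 0. Of the 21, 19 were at left ends, and 18 lay wholly within 20 kb of the end. Among the 24 genes at left ends within 20 kb all 24 were above 0 and 16 above 0.5.

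The 10 genes with the largest gains were spread over 6 left ends and III right, with neighbours often moving alike. SRY1 on XI left, for a pyridoxal phosphate enzyme that degrades 3-hydroxyaspartate, had 1.15 with BPS and 0.19 without BPS, a difference of 0.96 ± 0.14 over 4 probes, or 1.95-fold. AAD14 on XIV left, of the aryl-alcohol dehydrogenase family, had 1.06 and 0.13. RPD3, its neighbour on XIV left, encodes a histone deacetylase and had 0.82 and −0.09, a difference of 0.91 ± 0.13 over 5 probes. These 3 had every probe higher with BPS.

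On XII left, AYT1, an acetyltransferase gene, had 0.12 with BPS and −0.74 without BPS. Next to it MHT1, the methyltransferase gene for S-methylmethionine, had 0.17 and −0.66, and MMP1, the permease gene for the same compound, 0.30 and −0.44. All 3 were above the genome median with BPS and below it without BPS. On VII left, ADH4, an alcohol dehydrogenase gene, had the highest level of any belt gene with BPS, 1.80 against 0.97 without BPS. VEL1 (0.77 and −0.08), the mannosyltransferase gene MNT2 (0.69 and 0.03) and FZF1, for the regulator of sulfite export (1.55 and 0.91), lie on the same arm.

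The remaining gains of the first 10 were GIT1 on III right (1.03 and 0.21), DLD3, for a D-lactate dehydrogenase, on V left (1.34 and 0.54) and AGP3, an amino acid permease gene, on VI left (0.88 and 0.13). Of the 21 genes 11 were above the genome median on both arrays, and 9 were above it with BPS while below it without BPS. SRO77, an exocytosis gene on II left, stayed below it on both (−0.38 and −0.88 over 11 probes). Without BPS the genes with gains thus lay on both sides of the genome median, while with BPS all but SRO77 were above it.

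QCR2, for a core subunit of respiratory complex III on XVI right, had the lowest difference, −0.66 ± 0.29 over 3 probes, with −0.67 with BPS and −0.01 without BPS. DAL2, the allantoicase gene on IX right, had −0.03 and 0.60, a difference of −0.63 ± 0.06 with 0 of 4 probes higher. SAM4 on XVI left, a methyltransferase gene for homocysteine, had −0.98 and −0.44 over 3 probes, with an SE of 0.49 on the difference. The others of the lowest 10 did not reach −0.5 and ran from −0.46 at MRX20 to −0.42 at APA2. Among them were NDI1, for the internal NADH dehydrogenase of mitochondria (0.88 and 1.32), TUB3, for an alpha-tubulin (0.06 and 0.49), SDL1 (0.78 and 1.23), UPA1 (0.26 and 0.70) and ECM32, a helicase gene with 13 probes (−0.60 and −0.17). All 10 lay more than 20 kb from the end. These calls of single genes depend on where the genes are placed: of 19 named genes past 0.5 in either direction, 12 fell short of it or turned under another placement or quantile normalization, among them RPD3 (0.25), ADH4 (0.34), DAL2 (−0.32) and QCR2 (−0.32).

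**Figure D4:**
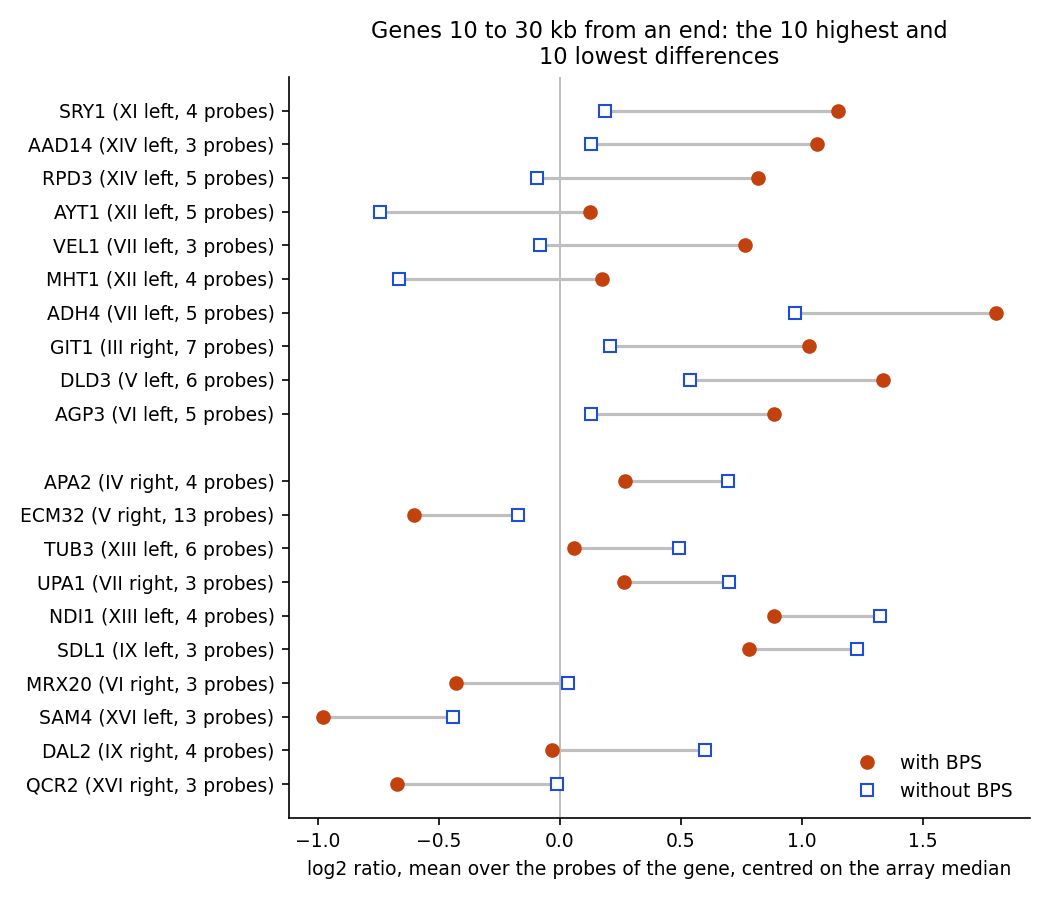
Levels of the 10 genes with the highest and the 10 with the lowest difference among the 154 belt genes (log2 ratio, mean over the probes of the gene, x axis); filled circles are the array with BPS, open squares the array without BPS. Of the upper 10, 9 are at left ends, and ADH4 has the highest level with BPS, 1.80.

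Few members of the gene families typical of subtelomeres had 3 probes within the belt. For iron and siderophore uptake 6 genes were measured in the belt, 5 with a difference above 0 and 1 above 0.5, with a median of 0.22 against 0.07 for all belt genes. With 6 genes these counts are close to the 57.8% above 0 and 13.6% above 0.5 of all belt genes. ENB1, the enterobactin transporter gene on XV left, had 1.17 with BPS and 0.59 without BPS, a difference of 0.58 ± 0.15. This difference fell short of 0.5 with gene positions moved 1 kb up (0.49) and after quantile normalization (0.46). ARN1 on VIII left, a ferrichrome transporter gene, had −0.48 and −0.89, but its difference of 0.42 became −0.38 with gene positions moved 1 kb up. FIT1, for a cell wall protein that retains siderophores, had 1.28 and 1.02. FRE5 (0.52 and 0.34) and FRE3 (1.05 and 0.93), of the ferric reductase family, both lie on XV right. SIT1, the ferrioxamine B transporter gene on V left at 27.9 to 29.3 kb, was the exception, at −0.82 with BPS and −0.60 without BPS.

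Of all belt genes 57.8% were above 0, 13.6% above 0.5 and 1.95% below −0.5, and of all genes 47.2%, 9.61% and 6.77%. The families below have too few genes to be set apart from these shares. For sulfur and arsenic 6 genes were measured, with a median of 0.07. Of these, 4 were above 0, 2 above 0.5 (MHT1 and MMP1) and 1 below −0.5 (SAM4). SUL1, the sulfate permease gene on II right, had 1.04 and 0.98. Both measured aryl-alcohol dehydrogenase genes, AAD14 and AAD4 (0.89 and 0.39), were past 0.5. They lie at left ends within 20 kb, where 16 of 24 genes were past it. AAD4 had a difference of 0.43 after quantile normalization. For the use of alpha-glucosides 3 genes were measured and 3 were above 0. IMA5, an isomaltase gene on X left, had 1.52 and 0.96, past 0.5. Its difference was 0.34 with positions moved 1 kb up, 0.47 with positions moved 1 kb down and 0.34 after quantile normalization. MAL13 (0.49 and 0.21) and IMA1 (0.59 and 0.55) both lie on VII right. COS9, of a membrane protein family, had 0.50 with BPS and −0.25 without BPS.

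The other families gave no difference past 0.5. HXT8, a hexose transporter gene on X left, had 0.87 with BPS and 0.44 without BPS. FLO10, a flocculin gene on XI right, had 0.98 and 0.72. For phosphate, PHO89 on II right had 0.97 and 0.52 and PHO84 on XIII left 0.57 and 0.81, both transporter genes. The mannoprotein genes DAN4 (0.75 and 0.70) and DAN1 (0.67 and 0.75) on X right and the biotin synthase gene BIO2 on VII right (1.02 and 0.97) had close values on the arrays. So did the silencing gene SIR1 on XI right (0.97 and 0.88) and RIF2, for a regulator of telomere length, on XII right (−0.51 and −0.44). For vitamins B1 and B6 no belt gene had 3 probes. Copies of a family can share signal on an array, and the part of that in these values was not tested.

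The silent mating-type loci lie inside the belt of III, and their genes share sequence with the active MAT locus. None of HMLALPHA1, HMLALPHA2, HMRA1 and HMRA2 had 3 probes. Within 2 kb either side of the HML genes, 11.2 to 15.5 kb from the left end, 9 probes gave 0.51 ± 0.14 with BPS and 0.26 ± 0.11 without BPS. Around the HMR genes, 19.6 to 24.3 kb from the last probe, 16 probes gave 0.14 ± 0.15 and 0.13 ± 0.09. The difference was 0.25 ± 0.11 at HML and 0.01 ± 0.08 at HMR. Of these 16 probes, the 3 within the span of the HMR genes had 0.83 ± 0.23 with BPS and 0.55 ± 0.14 without BPS, a difference of 0.28 ± 0.12, and no probe lay within that of the HML genes.

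Several places of the belt were high or low on both arrays, and genes at them were picked after the values were seen. On II right the 12 probes of PCA1, a gene for a cation pump that exports cadmium, had 1.40 with BPS and 1.23 without BPS. REE1 on X left had 1.69 with BPS, 0.20 ± 0.01 above its level without BPS, which was the highest of any belt gene on that array. After quantile normalization the differences turned to −0.14 at REE1 and −0.09 at PCA1. ELP6, for a subunit of Elongator on XIII right, had 1.39 with BPS and 1.44 without BPS. TGL3, a lipase gene on XIII right, had 1.41 and 1.12. In all, 8 of the 154 belt genes were above 1 log2 unit on both arrays. No count over all genes stands beside this, so it does not set the belt apart. Genes low on both arrays lay on XIII left, where ERO1, for the oxidase that forms disulfides in the endoplasmic reticulum, had −0.76 with BPS and −0.99 without BPS and YML131W −0.81 and −0.94, and on XII right, where PDP3, for a subunit of a histone acetyltransferase, had −0.83 and −0.76. The differences at these 3 genes were 0.23 ± 0.12, 0.13 ± 0.17 and −0.07 ± 0.05.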

How the data were processed

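The study labelled DNA ends with Cy3 (recovery) or Cy5 (G1), per the labels, and the submitters' processing notes name Agilent Feature Extraction 9.5.1. The table deposited by the authors gives each probe a linear ratio on each array, normalized per its name; how, with which numerator and on which genome build is not given in the sources used here. No scanner signal was used, so signal over background was not assessed, and precision is limited by having 1 array per group.

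All 41480 probes were kept. The log2 of each deposited ratio was taken and the median of its array subtracted (Python 3.11.15, pandas 2.3.3). Smoothed values are means over 2 kb either side. A difference counted as called past 0.5 log2 units. Groups came from the source names of the Cy3 channel.

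Genes were named by position from RefSeq's annotation (assembly R64). The 31 long Ty reading frames on 9 chromosomes held 2 probes in place, and 34 or 33 when moved 0.5 kb either way; chromosomes without such frames have no like check.

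The rule named the gene at the largest difference of each belt, the 10 highest and 10 lowest genes by difference, the 5 highest and 5 lowest by level on each array, the highest and lowest member of each list, all silent mating-type genes, and the 5 highest and 5 lowest ends. Other names were chosen after values were seen. The members and lists were chosen with earlier results of these data known. Scripts were tested on simulated data. Alternatives were other scalings, belts, windows, gene positions and the removal of gap edges, single ends or a chromosome.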

Additional observations from a re-analysis of the deposited data

How the results depend on the processing

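The left ends stayed above the right ends by median difference under every alternative run for them. Without centring the median level of the belts was 0.68 with BPS and 0.53 without BPS. With the belt cut to 10 to 20 kb the median difference was 0.23 over all ends, 0.66 over left and 0.077 over right ends. With the belt cut to 20 to 30 kb it was −0.043, 0.087 and −0.18, with 11 ends higher with BPS. The belt median of 0.06 is near 0: it was 0.03 after division by the robust SD, −0.001 after quantile normalization and 0.03 without chromosome III. Of the 30 belts 16 were above 0 after division by the robust SD (13 left and 3 right ends). After quantile normalization 15 were (13 left and 2 right ends). Counted from the last annotated gene, right ends had a median difference of 0.061. Without the right end of VIII, or without gap edges, the median level without BPS was 0.41; leaving out VIII, like the separate values for left and right ends, was added after seeing the data. Bins of 2.5 kb gave 0.12 from 20 kb and −0.17 from 27.5 kb. Smoothing over 4 kb either side left 11 probes past 0.5 log2 units downwards, and a threshold of 1 log2 unit 19 upwards and 2 downwards. Genes below −0.5 numbered 8 and 5 with positions moved 1 kb up and down, and 6 after quantile normalization; with 1 probe as the minimum 35 genes were above 0.5 and 6 below −0.5. SAM4 had 0.15 with positions moved 1 kb down and ARN1 −0.38 with positions moved 1 kb up. Positions moved 1 kb up also gave 0.12 at FZF1, 0.25 at RPD3, 0.37 at AGP3, 0.31 at COS9 and −0.09 at MRX20. Of 49 named genes 11 changed direction under some alternative, 9 of which had differences of at most 0.20 in size, 12 lost a call past 0.5 and 8 gained one. The cause of these shifts was not tested, apart from the fewer or more probes, ends or genes that an alternative takes in by construction. Of the single ends' values 213 moved by less than their 95% interval over probes and 54 by more, and of the named genes' values 159 and 20. The 213 include values that could not move, because the alternative left the probes of that end as they were. Leaving out chromosome III did so at all other ends, and counting from the last annotated gene at all left ends. No paired analysis was possible because each group has 1 array.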

Other observations

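Chromosome I was outside the rule, and from 10 to 30 kb its probes were lower with BPS on average at both ends. Its left end, with 39 probes, had a mean level of −1.01 ± 0.23 with BPS and −0.42 ± 0.12 without BPS, a difference of −0.59 ± 0.16 (SE over probes). Its right end, with 22 probes, had −1.05 ± 0.28 and −0.41 ± 0.16, a difference of −0.64 ± 0.24; it has no probe from 10 to 20 kb. Within these stretches the left end was higher with BPS at 25 to 30 kb (0.55) and the right end at 20 to 25 kb (0.32). Over all their probes, both ends had lower differences than the 29 belts of chromosomes II to XVI with at least 10 probes.

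The single probe with the largest gain of the belt lay beside HXT9 on X left (21.5 kb), with deposited ratios of 2.79 with BPS and 0.401 without BPS. The largest loss was at 1 probe in YLR460C on XII right (1059.9 kb), with 0.158 and 1.73. Both were chosen for their size and have no replicate.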
